A study of Rattus norvegicus with 12 samples.

Results

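The 8 genes described here, markers of hepatic progenitor and bile duct cells, were followed across rat small hepatocytes cultured on 3 coatings and across mature hepatocytes. They are the transcription factors Sox9 and Sox4, the surface proteins Epcam, Cd24, Prom1 and Gpc3, the membrane-bound or shed factor Dlk1, and the secreted protein Spp1. Members were chosen by the gene symbol printed for each probe in the scanner files, which gave 13 of 45489 probes and 8 of 36242 gene symbols. Sox9 had 4 probes, Sox4 had 3, and each of the other 6 genes had 1. Cd44, the protein used to sort the cultured cells, was left out.

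The data are 12 Agilent arrays of 1 colour, with 3 for every group. All cells came from livers of F344 rats, a DPPIV-positive inbred strain, and the age of the animals is not given in the sources used here. In 3 groups, small hepatocytes had been grown from collagenase-perfused livers, sorted magnetically for CD44 on day 9 after plating, and expanded on Matrigel. Cells of passage 2 then spent 3 h on dishes coated with one of 3 materials. These were laminin-111 (group LN111), laminin-511 (group LN511), both single proteins of basement membranes, and Matrigel (group Mat), an extract of such membranes. Their serum-free DMEM/F12 medium held EGF (10 ng/mL), nicotinamide (10 mM), dexamethasone, insulin, transferrin, selenium, an ascorbic acid derivative, proline, albumin, HEPES, bicarbonate and antibiotics. The control group was mature hepatocytes isolated from fresh livers (MH). MH thus differed from the other groups in cell fraction, sorting and culture together, and the share of each cannot be told apart. Whether the 3 replicates of a group were separate animals or cultures is not stated in the labels, and the spread behind each p-value may therefore be technical.

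SOX9 is a transcription factor of bile duct cells and of the ductal plate from which they form, and it appears in hepatocytes that take on duct features. SOX4 acts beside SOX9 in bile duct formation in the mouse. EPCAM, CD24 and PROM1 (CD133) are surface proteins by which liver progenitor and duct cells are isolated. SPP1 (osteopontin) is secreted by duct cells, and DLK1 and GPC3 are marks of fetal liver cells that mature hepatocytes lose.

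Levels are given as log2 relative signal, the log2 of a probe's processed signal minus that of its array's 75th percentile, so that 0 is the level of that percentile. Levels of different probes are not comparable with each other. A probe is called well above background by the scanner software's own mark. The 75th percentile itself was a signal of 1340 to 2150 on LN111 arrays, 1130 to 1370 on LN511 arrays, 1920 to 3090 on Mat arrays and 757 to 961 on MH arrays. Between 52.2% and 62.7% of the non-control spots were well above background, and 0 were saturated. LN111 replicate 3 had 1126 spots with an outlier mark, against 350 to 499 on the other arrays. Mat replicates 1 and 2 and all MH arrays lay on slide 1, and Mat replicate 3 with all LN111 and LN511 arrays lay on slide 2. Differences were tested two-sided with limma, probes were called at a Benjamini-Hochberg adjusted p under 0.05 over all probes tested, and errors are standard errors (SE) of the fit unless SD is written.

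Sox9 was read by 4 probes of 60 bases along one transcript, which are printed because their values are given one by one. They start at transcript bases 443, 1508, 1605 and 2276. The files place them on the plus strand of chromosome 10 in build rn4, at chr10:102387172-102387231, chr10:102388891-102388950, chr10:102388988-102389047 and chr10:102389659-102389718, with no exon or UTR annotation. Between the first pair the genome distance exceeds the transcript distance by 654 bases, and between the later pairs both distances are equal. The first 3 are given whole and the last as 30 bases, and capitals mark the longest run of A and T.
Sox9 base 443: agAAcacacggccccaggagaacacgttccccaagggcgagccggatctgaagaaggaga
Sox9 base 1508: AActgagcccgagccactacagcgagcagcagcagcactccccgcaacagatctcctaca
Sox9 base 1605: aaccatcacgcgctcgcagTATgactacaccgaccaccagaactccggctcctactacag
Sox9 base 2276: tatacATATTTTAgataaaaaagttaaatg
The whole 60 bases hold 60.0%, 60.0%, 56.7% and 23.3% G and C in that order.

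Sox9 was called higher in the cultured cells than in MH at all 4 probes, as were 31.2% of all probes tested. It was called lower on LN111 than on LN511 at all 4, as were 11.7% of all probes tested. The base 2276 probe had log2 relative signals of -1.33, 0.20 and -1.37 on LN111, 0.64, 0.81 and 0.94 on LN511, -0.04, 0.34 and 0.10 on Mat, and -7.31, -7.56 and -7.13 in MH. All 9 cultured arrays lay above all MH arrays, where the probe was not well above background on any array. Cultured cells, taken as the equal mean of LN111, LN511 and Mat, were at least 40.5-fold higher (limma adjusted p 1.1e-08). Such a bound sets the bright group's mean against, on each dim array, the higher of the probe's signal and the array's lowest signal well above background. The bound itself was not tested, and an adjusted p printed beside a bound here or below is that of the fitted difference. The bound was 22.2-fold for LN111, 68.8-fold for LN511 and 43.4-fold for Mat.

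The base 1605 probe read -3.40, -2.36 and -3.76 on LN111, -1.65, -1.43 and -1.51 on LN511, -2.55, -2.01 and -2.59 on Mat, and -5.72, -5.71 and -6.37 in MH. It too was not well above background on any MH array, and cultured cells were at least 7.68-fold higher (limma adjusted p 1.05e-06). The base 1508 probe read -2.52, -2.31 and -2.86 on LN111, -1.57, -1.59 and -1.43 on LN511, -2.67, -2.45 and -2.46 on Mat, and -4.00, -4.73 and -3.98 in MH. This was the only Sox9 probe well above background on all 12 arrays, and its cultured-minus-MH difference was 2.03 ± 0.18, which is 4.09-fold (limma adjusted p 2.59e-06). A Sox9 signal was therefore measurable in MH at this probe.

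The base 443 probe was the dimmest. It read -7.20, -4.69 and -6.80 on LN111, -3.61, -3.91 and -3.44 on LN511, -5.32, -4.84 and -5.65 on Mat, and -5.06, -6.97 and -7.27 in MH. It was well above background on 1 LN111, 3 LN511, 3 Mat and 1 MH array, and cultured and MH arrays overlapped. Its difference from MH, 1.38 ± 0.56 (limma adjusted p 0.0454), lost its call without MH replicate 2 or 3, any single LN511 or any single Mat array (adjusted p 0.0524 to 0.207). It was -0.24 with normexp background correction, and under that correction LN111 and Mat were lower than MH at this Sox9 probe (-0.64 and -0.65, limma adjusted p 0.0276 and 0.023). LN511 alone was higher by 2.78 ± 0.68 (adjusted p 0.00451), and the slide as a block ended that call too (adjusted p 0.06).

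Sox4 was read by 3 probes, starting at transcript bases 1419, 2147 and 4609, of which the last was spotted in 2 copies. The files place them on the plus strand at chr17:42174303-42174362, chr17:42175031-42175090 and chr17:42177493-42177552 in rn4, and genome and transcript distances between them are equal. They are printed, with the same capitals, to show what each probe reads.
Sox4 base 1419: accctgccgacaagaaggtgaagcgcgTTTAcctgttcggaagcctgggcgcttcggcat
Sox4 base 2147: gaaggAAAAAAAgtgcatagggctggcctg
Sox4 base 4609: tgctatataccttctgTAAATAActttttt
Their G and C content over 60 bases is 60.0%, 56.7% and 38.3%.

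Sox4 was called higher in the cultured cells than in MH at all 3 probes, as were 31.2% of all probes tested. LN511 was the highest group at each Sox4 probe, an order whose share over all probes was not computed. The base 4609 probe read 1.26, 1.29 and 1.64 on LN111, 2.46, 2.27 and 2.58 on LN511, 1.82, 1.76 and 1.65 on Mat, and -3.88, -3.91 and -3.41 in MH. It was well above background on all 12 arrays and differed from MH by 5.59 ± 0.14, or 48.3-fold (limma adjusted p 7.45e-10). The base 1419 probe read -0.45, -0.43 and -0.11 on LN111, 0.77, 0.40 and 0.74 on LN511, -0.62, -0.42 and -0.28 on Mat, and -5.75, -7.38 and -6.62 in MH. It was not well above background on any MH array, and cultured cells were at least 38.4-fold higher (adjusted p 1.44e-08).

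The base 2147 probe of Sox4 was well above background on 9 cultured arrays and 1 MH array. It read -4.18, -4.01 and -4.16 on LN111, -2.24, -1.54 and -1.92 on LN511, -4.21, -3.83 and -3.87 on Mat, and -5.83, -6.59 and -4.93 in MH. Each cultured array lay above the MH arrays, and the difference was 2.46 ± 0.29 (limma adjusted p 2.42e-05). With normexp correction this Sox4 probe did not separate Mat from MH (difference -0.00, adjusted p 0.986) or LN111 from MH (0.08, adjusted p 0.701). With the slide as a block, LN111 against MH was 1.52 (adjusted p 0.0962).

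**Figure D1:**
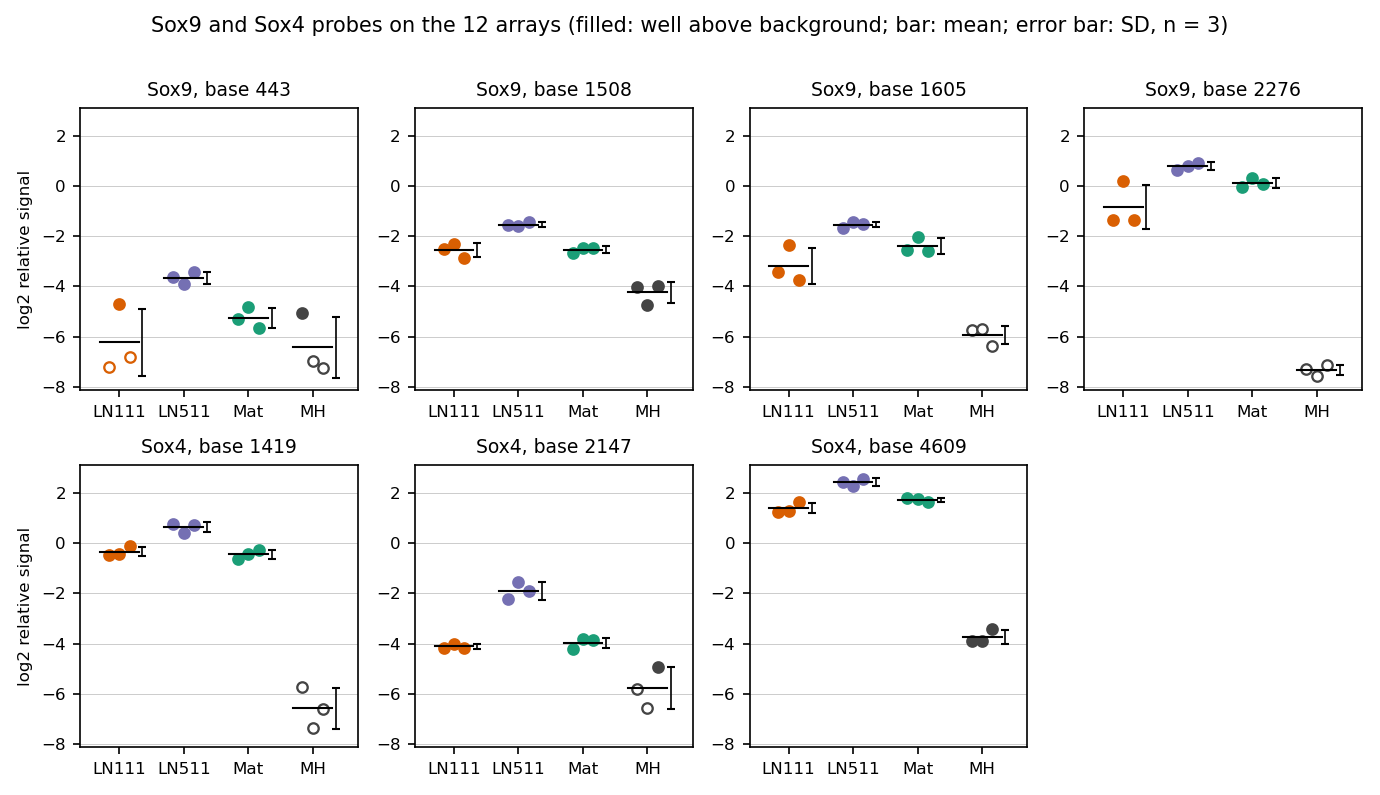
Log2 relative signal (y axis) of the 4 Sox9 probes and 3 Sox4 probes on every array, by group (x axis); filled points were well above background, horizontal bars are means and error bars the SD (n = 3). LN511 points lie above LN111 points in all 7 panels, and MH points are lowest except at Sox9 base 443, where both LN111 and Mat overlap MH.

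The fitted cultured-minus-MH difference was 1.38, 2.03, 3.57 and 7.37 at the Sox9 probes from base 443 to base 2276. In Sox4 it was 6.54, 2.46 and 5.59 from base 1419 to base 4609. MH was well above background on all 3 arrays at Sox9 base 1508 and Sox4 base 4609 only. It was so on 1 array at Sox9 base 443 and Sox4 base 2147 and on none at the other 3 probes, so the sizes of the differences cannot be ranked along either transcript.

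**Figure D2:**
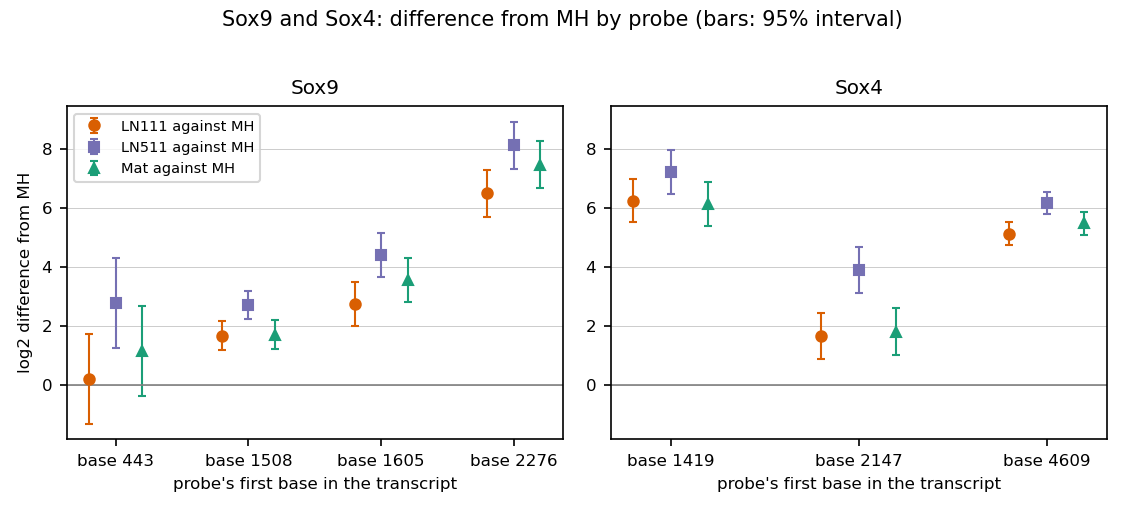
Log2 difference from MH (y axis, with 95% intervals) for LN111, LN511 and Mat at each Sox9 and Sox4 probe, ordered by the probe's first transcript base (x axis, not to scale). All points lie above 0, with intervals that cross 0 for LN111 and Mat at Sox9 base 443, and MH was well above background on all 3 arrays at Sox9 base 1508 and Sox4 base 4609 only.

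Epcam, an adhesion protein of epithelial cells that hepatocytes lose as they mature, was read by 1 probe at transcript bases 556 to 615. The files place its 60 bases at chr6:11181855-11182638 in rn4, a span of 784 bases, so the probe crosses an intron. Its log2 relative signals were 1.05, 0.66 and -0.01 on LN111, 2.72, 1.87 and 2.13 on LN511, 1.78, 1.24 and 1.89 on Mat, and -2.40, -2.54 and -2.59 in MH. Epcam was well above background on all 12 arrays, and the 9 cultured arrays lay above MH without overlap. The difference was 3.99 ± 0.24, or 15.9-fold (limma adjusted p 1.93e-07).

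Cd24, a small glycoprotein anchored in the membrane, was read by a probe at chr20:47507471-47507530 (rn4). It read 1.88, 3.18 and 2.59 on LN111, 3.54, 3.68 and 4.01 on LN511, 3.26, 3.46 and 3.11 on Mat, and -1.13, -0.97 and -0.86 in MH. Cd24 thus was measurable in MH and was 18.1-fold higher in cultured cells, a log2 difference of 4.18 ± 0.23 (limma adjusted p 9.25e-08). Its LN111 arrays spread more (SD 0.65) than its LN511 (SD 0.24) and Mat arrays (SD 0.18, n = 3 each).

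Prom1, a protein of membrane protrusions, was read at chr14:72230384-72230443 (rn4). It read 1.68, 1.46 and -0.23 on LN111, 2.25, 1.27 and 2.06 on LN511, 2.02, 1.51 and 2.14 on Mat, and -7.34, -6.07 and -4.96 in MH. Prom1 was close to background in MH, where only replicate 3 was well above it, and the fitted difference of 7.70 ± 0.51 (limma adjusted p 3.44e-07) rests on those dim MH signals. LN111 replicate 3, the array with the most outlier marks, was the lowest cultured array.

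Spp1 was spotted in 10 copies at transcript bases 981 to 1040, and its values are means over the copies kept. It read -3.79, -1.13 and -1.56 on LN111, -1.27, -1.37 and 1.31 on LN511, -0.08, -0.99 and -0.26 on Mat, and -7.37, -7.65 and -7.17 in MH. No MH array was well above background, and Spp1 was at least 19.6-fold higher in cultured cells (limma adjusted p 7.92e-06). The spread between cultured replicates was wide, with an SD of 1.43 on LN111 and 1.52 on LN511, against 0.48 on Mat. Copies of the probe on one cultured array had an SD of 0.04 to 0.46.

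Dlk1, a relative of the Notch ligands, was read at chr6:134028313-134028372 (rn4) and was near background on most arrays. It read -6.88, -4.57 and -5.04 on LN111, -3.37, -3.19 and -4.17 on LN511, -6.78, -5.36 and -6.17 on Mat, and -7.52, -7.80 and -7.37 in MH. The signal was well above background on 2 LN111, 3 LN511, 1 Mat and 0 MH arrays, so LN511 was the one group in which Dlk1 was measured on every array. LN511 was at least 3.31-fold higher than MH (limma adjusted p 0.000122). For all cultured cells the bound was 1.19-fold, and the fitted difference of 2.50 ± 0.46 (adjusted p 0.000602) became -0.087 with normexp and 0.30 (adjusted p 0.51) with signals raised to background. For Mat against MH, Dlk1 was 1.46 ± 0.56 (adjusted p 0.0404) by the fit and -0.82 (adjusted p 0.0167) with normexp. That call was lost without LN511 replicate 1, Mat replicate 2 or 3, or any single MH array (adjusted p 0.0523 to 0.143).

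Gpc3, a cell surface heparan sulfate carrier, was read on the minus strand at chrX:139192547-139192606 (rn4). It read -2.16, -2.89 and -1.10 on LN111, -2.11, -2.74 and -1.02 on LN511, -1.45, -2.74 and -1.45 on Mat, and -5.93, -7.30 and -7.33 in MH. All cultured arrays lay above all MH arrays, none of which was well above background, and cultured cells were at least 10.1-fold higher (limma adjusted p 8.46e-06). Gpc3 group means on the coatings were -2.05 ± 0.90, -1.96 ± 0.87 and -1.88 ± 0.74 (SD, n = 3 each, for LN111, LN511 and Mat). Its spread ran between arrays of a group, and replicate 2 was the lowest on each coating.

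**Figure D3:**
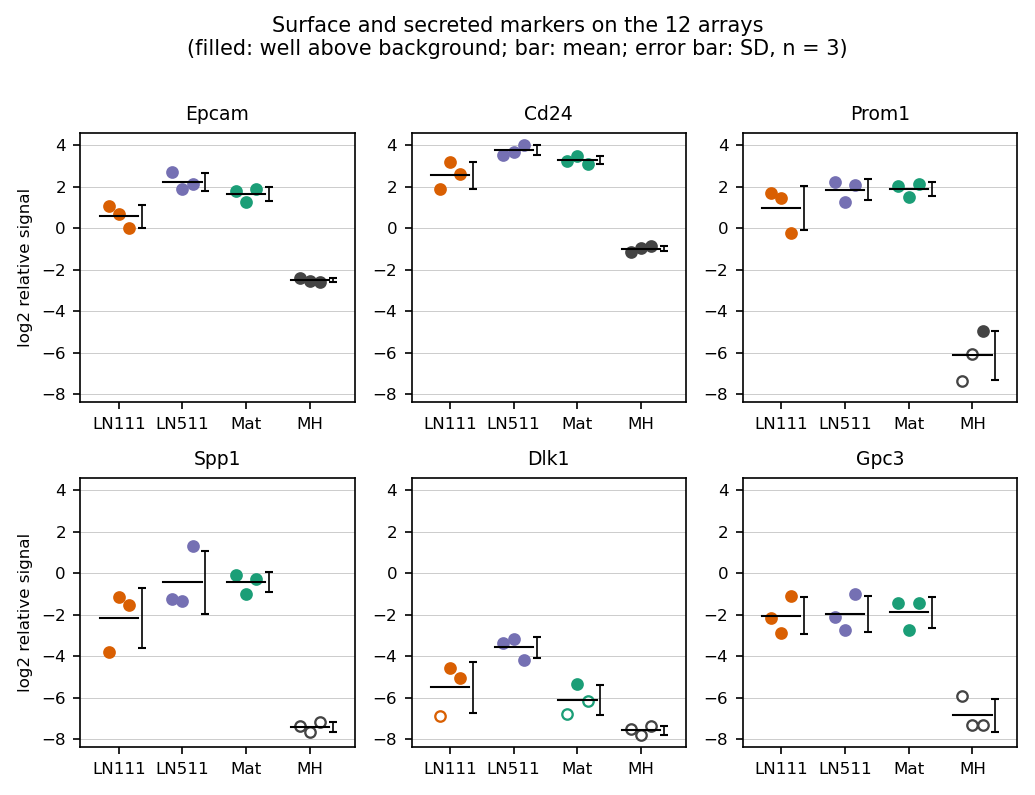
Log2 relative signal (y axis) of Epcam, Cd24, Prom1, Spp1, Dlk1 and Gpc3 on every array, by group (x axis); filled points were well above background, bars are means and error bars the SD (n = 3). In all 6 panels the cultured arrays lie above the MH arrays, and Dlk1 is filled on all 3 arrays in LN511 only.

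Across the members, 13 of 13 probes were called higher in cultured cells than in MH, in a comparison that called 72.4% of the 23641 probes tested and 31.2% as higher. The median difference of the members was 4.18, and that of all probes tested was -0.16. With no scaling between arrays the median of all probes was 0.88, and 78.5% of the called probes were higher instead of 43.1%, while normexp gave 25.6%. Cultured and MH arrays did not overlap at 12 of the 13, which was so, in the same direction, for 22.3% of probes tested. Of the 13 member probes, 4 were well above background on every MH array, 3 on 1 MH array and 6 on none. Probes dim in MH entered the test only through a coating where they were bright, so the filter favoured a higher call for them. The members were also chosen with earlier results of these data known, so the count of 13 is a description. Fewer cells of a type and less RNA per cell cannot be told apart in such bulk samples.

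By coating, 12 of 13 probes were called higher on LN111 than in MH (27.1% of all probes tested), 13 on LN511 (31.5%) and 12 on Mat (26.2%). The exception on LN111 and on Mat was Sox9 base 443, with differences of 0.20 ± 0.68 and 1.17 ± 0.68 (limma adjusted p 0.806 and 0.156). These comparisons share the MH arrays. Of all called probes, the share higher than MH was 41.0% on LN111, 46.9% on LN511 and 39.5% on Mat, which became 77.0%, 66.0% and 87.0% unscaled and 24.0%, 34.8% and 20.4% with normexp. LN111 and LN511 shared no slide with MH. Within slide 1, Mat replicates 1 and 2 were above MH at 11 member probes by limma, Dlk1 not being tested there. With the slide as a block the counts were 10 on LN111, 12 on LN511 and 11 on Mat. The shares of all probes above belong to the fit of all arrays without a block, not to these 2 settings. The counts within slide 1 and with the block are therefore a description only. The block also lowered the number of all probes called on LN111 and LN511, as given below.

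Marker lists of other cell types moved with this comparison. Summed relative signal of 10 mature hepatocyte genes was 155 to 280 on LN111, 182 to 386 on LN511, 120 to 278 on Mat and 907 to 1076 in MH, and every one of these genes was well above background on some array of each group. Each averaged lower on every coating than in MH, by unlike amounts that the sum does not show. Mean log2 relative signals on LN111, LN511, Mat and MH were 5.85, 6.38, 5.56 and 7.30 for Alb. For Cyp2c11 they were -3.27, -2.26, -3.22 and 7.07. Of 8 biliary genes, 7 were well above background on all arrays of each coating and 2 on all MH arrays, with sums of 10.0 to 40.0 on LN111, 21.5 to 72.1 on LN511, 16.6 to 49.2 on Mat and 3.96 to 4.73 in MH. Krt7, Krt19, Cftr and Sctr were among those not well above background on any MH array. Cftr was dim in culture too, being well above background on 0 LN111, 0 LN511 and 1 Mat array. The biliary gene Slc4a2 ran the other way, with mean log2 relative signals of 1.06 on LN111, 0.38 on LN511, 0.33 on Mat and 1.78 in MH. The 8 Kupffer cell genes summed to 0.21 to 0.43 on LN111, 0.29 to 0.94 on LN511 and 0.16 to 0.18 on Mat, against 15.9 to 18.0 in MH, where all 8 were well above background. The Kupffer genes Cd5l, Marco and Adgre1 were not well above background on any cultured array. The part of these cell types in the members' differences was not tested.

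**Figure D4:**
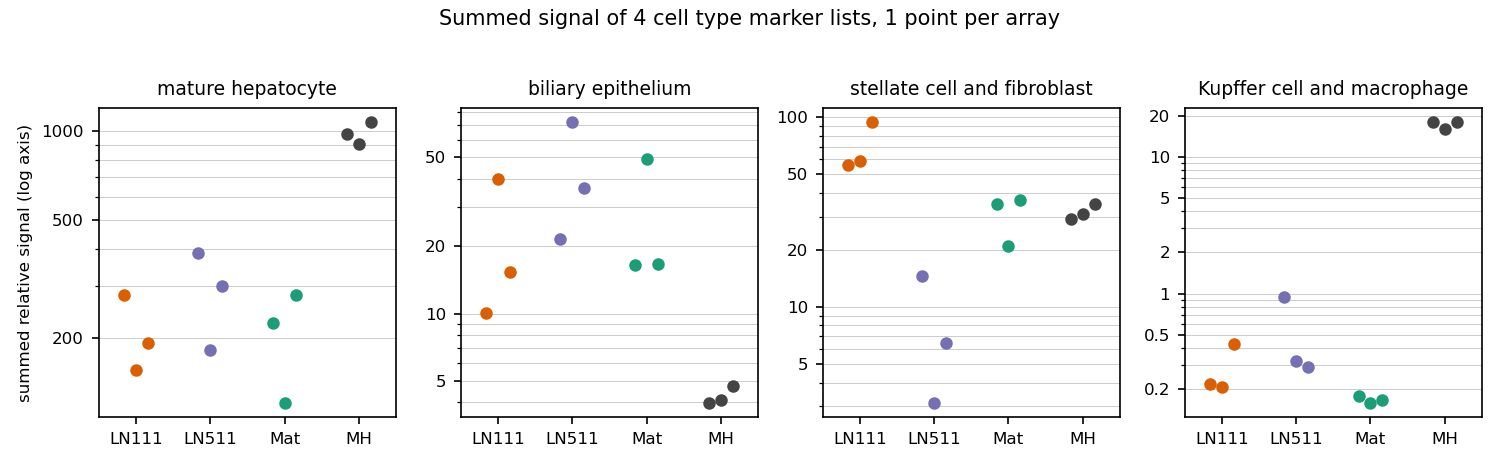
Summed relative signal (log y axis) of 4 cell type marker lists, with 1 point per array and groups along the x axis. MH is highest in mature hepatocyte and Kupffer cell genes and lowest in biliary genes, and LN511 is lowest in stellate cell and fibroblast genes.

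The second question was how the members differed between coatings 3 h after replating. LN511 had the highest group mean at 11 of 13 probes, the others being Prom1 and Gpc3, which were highest on Mat. The LN511 and Mat means were nearly equal at Spp1 (-0.440 and -0.443) and at Prom1 (1.86 and 1.89). LN111 had the lowest cultured mean at 11 of 13, the others being Sox4 base 1419 and Dlk1, which were lowest on Mat. The share of all probes with either order was not computed, so these counts are a description only. The median difference of all probes tested was 0.13 for LN511 against Mat, -0.15 for LN111 against LN511 and 0.01 for LN111 against Mat. In a moderated F test over the 3 coatings, 6 of 13 probes were called, where 12.7% of the 22331 probes tested were. They were Sox9 base 1508 and base 1605, the 3 Sox4 probes and Epcam, with limma adjusted p from 0.00229 to 0.0394.

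LN111 was lower than LN511 at 9 of 13 probes, in a comparison that called 17.7% of probes tested and 11.7% as lower. Sox9 fell at 4 of its 4 probes, by 2.58 ± 0.59, 1.03 ± 0.16, 1.65 ± 0.34 and 1.63 ± 0.39 from base 443 to base 2276 (limma adjusted p 0.0223, 0.00613, 0.0156 and 0.0262). At base 443 LN111 was well above background on 1 of 3 arrays. Sox4 fell at 3 of 3, by 0.97 ± 0.17, 2.22 ± 0.20 and 1.04 ± 0.15 (adjusted p 0.00809, 0.002 and 0.00447). Epcam fell by 1.67 ± 0.33 (adjusted p 0.0129) and Cd24 by 1.19 ± 0.31 (adjusted p 0.0339). At each of these 9 probes the LN111 and LN511 arrays did not overlap, and the same held for 24.3% of all probes tested in that direction.

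The calls differed in how far they rested on single arrays. The Sox4 calls, Epcam and Sox9 base 1508 were kept when any one of the cultured arrays was left out. Sox9 base 1605 lost its call without LN511 replicate 2 or 3 (limma adjusted p 0.0507 and 0.0525). Sox9 base 443 and base 2276 lost theirs without LN111 replicate 1 or 3 or any single LN511 array (adjusted p 0.0522 to 0.0854). Cd24 lost its call without those arrays or without Mat replicate 1 or 3 (adjusted p 0.0563 to 0.112), and with the slide as a block (0.0543). The count was 5 without LN511 replicate 2 or 3, 6 without LN511 replicate 1, LN111 replicate 1 or LN111 replicate 3, and 10 without LN111 replicate 2. On slide 2, where all LN111 and LN511 arrays lay, the fit without the other slide called 6.

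Signals compared with no scaling between arrays kept the direction at these 9 probes but called 2. Sox9 base 443 and Sox4 base 2147 were those called, and Sox4 base 4609 was -0.55 (limma adjusted p 0.275). The scaling alone moved the median difference of all probes tested, which was -0.15 with scaling and 0.34 without. Of all called probes 34.0% were higher on LN111 with scaling, 77.3% without and 22.3% with normexp.

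Prom1, Spp1, Dlk1 and Gpc3 were not called between LN111 and LN511. Dlk1, which entered this fit only through LN511, differed by -1.92 ± 0.62 with arrays that did not overlap (limma adjusted p 0.0695). Prom1 differed by -0.89 (95% interval -2.05 to 0.27) and Spp1 by -1.72 (-3.74 to 0.30). For Gpc3 the difference was -0.10 (-1.48 to 1.29). The intervals of Prom1 and Spp1 reach past the differences called in Epcam and in 3 of the 4 Sox9 probes.

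The summed signal of stellate cell and fibroblast genes moved with LN111 against LN511. All 10 of these genes were well above background on every LN111 array and 9 on every LN511 array. Their summed relative signal was 55.9, 58.9 and 94.6 on LN111 against 14.5, 3.11 and 6.44 on LN511, with 35.0, 21.1 and 36.4 on Mat. The collagen gene Col1a1 was the brightest of the list on LN111, with a mean log2 relative signal of 5.44 on LN111 and 1.30 on LN511. The genes did not all run one way. Lrat averaged -3.03 on LN111 and -1.96 on LN511, and Reln averaged -0.82 and -0.72 on those coatings. Biliary genes summed to 10.0, 40.0 and 15.4 on LN111 against 21.5, 72.1 and 36.6 on LN511, and these ranges overlapped. The part of either cell type in the members' differences was not tested.

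LN511 was higher than Mat at 5 of 13 probes, in a comparison that called 8.01% of probes tested and 6.87% as higher. They were the 3 Sox4 probes, Sox9 base 1508 and Dlk1. Sox4 rose by 1.08 ± 0.17, 2.07 ± 0.20 and 0.70 ± 0.15 from base 1419 to base 4609 (limma adjusted p 0.00819, 0.00196 and 0.0288). Sox9 base 1508 rose by 1.00 ± 0.16 (adjusted p 0.0105) and Dlk1 by 2.53 ± 0.62 (adjusted p 0.0471). Dlk1 entered the fit of the cultured arrays only through LN511, so the filter favoured a call of higher on LN511 for it. Its place among the 5 is a description only. Mat was well above background on 1 of 3 arrays at Dlk1, whose call was lost without LN111 replicate 3, any single LN511 or any single Mat array (limma adjusted p 0.0577 to 0.176). LN511 and Mat arrays did not overlap at these 5 (25.2% of all probes tested in that direction), as at the other Sox9 probes, whose differences were 1.62, 0.86 and 0.67 (adjusted p 0.153, 0.189 and 0.378). The stellate cell and fibroblast list above summed to 3.11 to 14.5 on LN511 and 21.1 to 36.4 on Mat, and its part was not tested. Epcam, Cd24, Prom1, Spp1 and Gpc3 were not called, with differences of 0.60, 0.47, -0.03, 0.00 and -0.08. Of these genes, only Cd24 had LN511 arrays that all lay above the Mat arrays.

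These 5 calls depended on the slide and on the scaling. With the slide as a block 0 of 13 were called, while the Sox4 differences were 0.92, 1.97 and 0.79 (limma adjusted p 0.161, 0.0503 and 0.201), Sox9 base 1508 was 0.93 (0.167) and Dlk1 was 2.60 (0.311). Within slide 2, with Mat replicate 3 as its only Mat array, 0 were called as well. With no scaling between arrays, Sox4 base 2147 and Dlk1 were the 2 called, and Sox9 base 1508, Sox4 base 1419 and Sox4 base 4609 changed direction (-0.10, -0.02 and -0.40, none called). The median difference of all probes tested was 0.13 with scaling and -0.96 without. Of all called probes 85.9% were higher on LN511 with scaling, 3.89% without, 70.7% after quantile normalization and 96.1% with normexp. The count was 8 without LN111 replicate 2, an array that enters through the shared spread and the filter, 4 without LN111 replicate 3, 3 without LN511 replicate 1, 2 or 3 or Mat replicate 2 or 3, and 2 without Mat replicate 1.

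LN111 and Mat were not told apart at any member. Of the 13 probes 0 were called, as were 0% of the 22331 probes tested by limma, while 5 member probes and 2737 probes in all had an unadjusted p under 0.05. Under the other settings run, 0 to 39 of all probes were called. Epcam had the smallest p among the members, with a difference of -1.07 ± 0.33 (95% interval -1.83 to -0.31, limma adjusted p 0.334). Epcam, Spp1 and Sox4 base 4609 had LN111 arrays all below Mat arrays, which held in that direction for 7.97% of probes tested. Sox9 base 1508 differed by -0.04 (-0.41 to 0.34) and Sox4 base 1419 by 0.11 (-0.27 to 0.49).

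**Figure D5:**
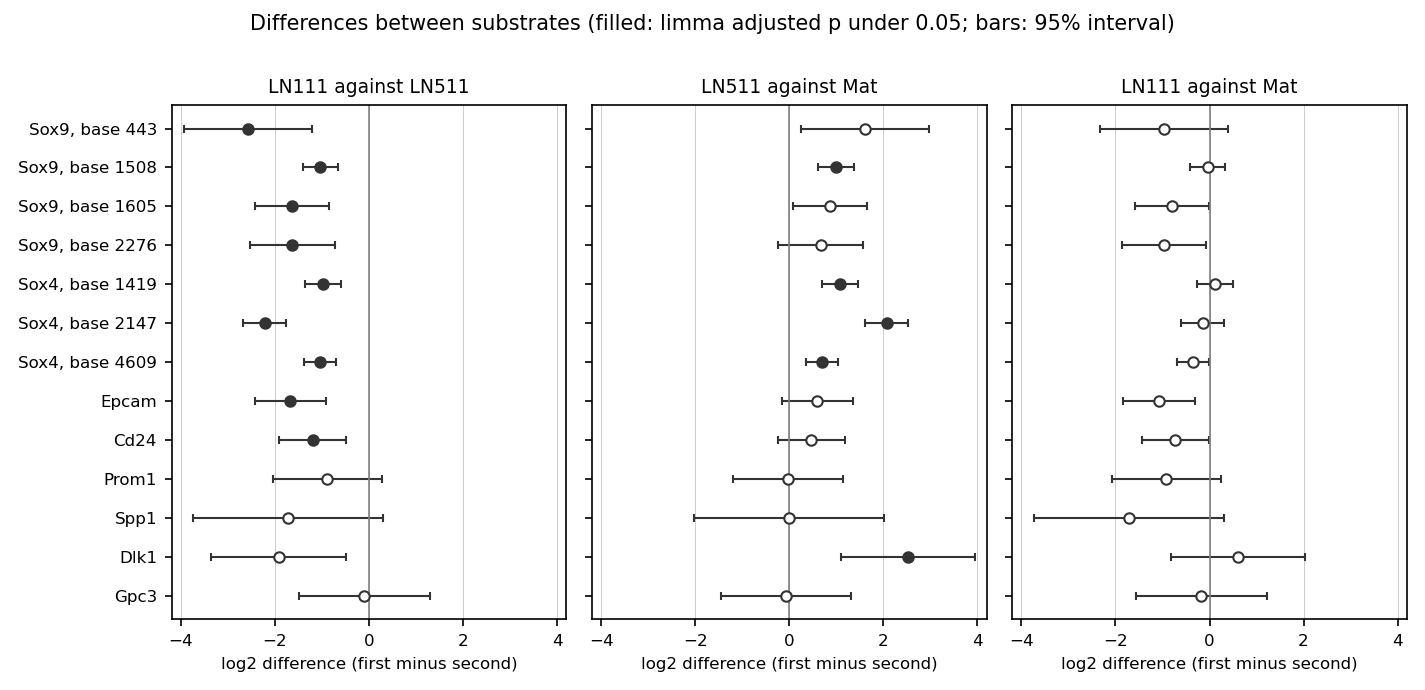
Log2 difference (x axis, with 95% intervals) of each member probe (y axis) for LN111 against LN511, LN511 against Mat and LN111 against Mat; filled points had a limma adjusted p under 0.05. There are 9 filled points left of 0, 5 right of 0 and 0 in the 3 panels in that order.

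Other genes of progenitor and bile duct cells gave the setting of these values. Of 36 listed genes, 30 were tested and Cftr, Lgr5, Cd34, Muc1, Foxl1 and Sox17 were too dim. Against MH, 19 were higher and 6 lower in cultured cells, with a median difference of 2.45 against -0.18 over all genes tested. Of all probes tested, 31.2% were called higher and 41.2% lower there. The largest increases were in the duct keratins Krt7 and Krt19 (at least 379-fold and 328-fold), the tight junction protein Cldn4 (at least 339-fold) and the secreted Lcn2 (at least 75.1-fold). The largest decreases were in the hepatocyte and duct factor Onecut1 (-2.75 ± 0.40), the transporter Abcg2 (-2.70 ± 0.49), the growth factor receptor Fgfr2 (-1.70 ± 0.49) and the transcription factor Tbx3 (-1.61 ± 0.54), with limma adjusted p from 0.000114 to 0.0206.

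Between coatings the same list gave 9 genes lower and 3 higher on LN111 than on LN511, with a median of -1.15 against -0.15 over all genes tested. Of all probes tested, 11.7% were called lower and 6.02% higher there. Among those lower on LN111 were the claudins Cldn4 (-2.55 ± 0.30) and Cldn7 (-2.14 ± 0.61) and the factor Onecut1 (-1.83 ± 0.42). The 3 that were higher on LN111 were the receptor Kit (3.86 ± 0.93, well above background on 1 of 3 LN511 arrays), the surface protein Thy1 (1.90 ± 0.24), which fibroblasts and stellate cells also carry, and the water channel Aqp1 (1.35 ± 0.17). Adjusted p of these 6 ran from 0.00309 to 0.0463 by limma. On LN511 against Mat, Cldn4 (1.66 ± 0.30) and the Notch target Hes1 (1.08 ± 0.26) were the 2 genes called, both higher on LN511 (limma adjusted p 0.0149 and 0.0444), as were 6.87% of all probes tested. Without scaling Hes1 was -0.02 and Cldn4 was 0.57, values set by that scaling and not tested again. On LN111 against Mat 0 of 30 were called, with 10 at an unadjusted p under 0.05.

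Other genes whose pattern over the 9 cultured arrays was most like a member's were picked by Pearson's r as a description. These arrays form 3 groups and share their scaling, and 13519 to 13521 probes were searched for each. Sox9 base 2276 was most like Slc2a2 (r = 0.989) and Patj (0.985). Sox4 base 4609 was most like Zfp36l1 (0.983) and Tmem39a (0.982). Epcam was most like Plau and Cldn23 (0.992 each), Cd24 like Slc10a2 (0.990) and Ina (0.982), and Prom1 like Rgma (0.987) and Shmt1 (0.982). Values were lower for Spp1, with Scube3 (0.962) and Arxes1 (0.930), and for Gpc3, with Galm (0.941) and Cox5b (0.940). Dlk1 was not set against other genes because it was not well above background on all 9 arrays.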

How the data were processed

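Each array received Cy3-labelled RNA made from 100 ng of total RNA, per the labels' protocols. The deposited scanner files hold, per the file headers, a linear intensity for each spot (processed signal) that was background-subtracted and detrended within the array, with surrogate values for low signals. Images were read with Agilent Feature Extraction 10.7, per the submitters' processing notes. The authors' deposited value table holds the same intensity, unscaled between arrays, and differed by at most 0.0072 on the log2 scale.

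From the deposited intensity, levels were computed as log2 of the signal after division by the array's 75th percentile over non-control spots. Spots with an outlier mark were dropped, which lost 109 of 45598 probes, and copies were averaged. Probes entered a test where all 3 arrays of some group in that fit were well above background. Fits used limma 3.58.1 in R 4.3.3 on all 12 arrays against MH (23641 probes) and on the 9 cultured arrays between coatings (22331 probes). The code was tested on simulated data. Every member probe is named. From the list of 36 genes, the 4 largest called differences in each direction are named, and 2 probes of other genes most like each member. A gene that this rule takes is not reported here. The members and lists were chosen with earlier results of these data known. Alternatives were normexp (offset 50), quantile normalization, no scaling, the deposited value table, other filters on dim probes, signals raised to background, 1 probe per gene, the slide as a block or within slide, a replicate block, and leaving out each array. No genome was used, and the number of arrays limits the precision.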

Additional observations from a re-analysis of the deposited data

How the results depend on the processing

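Of 1976 values of single probes under other settings, 1834 kept their direction and their side of the threshold, 84 lost a call, 10 gained one and 48 changed direction. The cause of each change below was not tested unless fewer probes or arrays are named. With normexp, Sox9 base 443 was -0.24 in cultured cells, -0.64 on LN111 and -0.65 on Mat against MH, and Dlk1 was -0.087, -0.33 and -0.82. Normexp also turned Sox4 base 2147 for Mat against MH (-0.0037), Sox9 base 443 (0.012), Sox9 base 1508 (0.077) and Sox4 base 2147 (0.088) for LN111 against Mat, and Gpc3 for LN511 against Mat (0.044), and the F test called 10 member probes. With signals raised to background, LN111 and Mat against MH were -0.34 and -0.031 for Sox9 base 443 and -0.027 and -0.80 for Dlk1. With no scaling between arrays, 2 member probes were called for LN511 against Mat and 2 for LN111 against LN511. LN511 against Mat then was -0.10, -0.24 and -0.43 for Sox9 from base 1508 to base 2276, -0.016 for Sox4 base 1419, -0.40 for Sox4 base 4609, -0.50 for Epcam, -0.63 for Cd24 and -1.09 for Spp1. LN111 against Mat was -0.49 for Sox4 base 1419, and LN111 against LN511 was 0.40 for Gpc3. With the slide as a block, and also within slide 2, 0 member probes were called for LN511 against Mat, Sox4 base 1419 was -0.051 for LN111 against Mat, and Spp1 was -0.18 for LN511 against Mat. Within slide 2, with fewer arrays, the F test called 1. For the F test, the share of all probes called was not computed under other settings. Its member counts in this section are therefore a description only. Without a filter on dim probes LN511 against Mat called 3. The strict filter tested 4 member probes against MH and called 4 in each of the comparisons of cultured cells, LN111, LN511 and Mat with MH. With 1 probe per gene, 8 genes were called for cultured cells and 8 for LN511 against MH, 2 for LN511 against Mat, 4 for LN111 against LN511 and 2 by the F test.

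Leaving out each array in turn gave 12 to 13 called member probes for cultured cells against MH, 2 to 8 for LN511 against Mat, 5 to 10 for LN111 against LN511 and 4 to 9 by the F test. Uncalled differences that changed direction ranged from -0.57 to 0.89 for Sox9 base 443 (LN111 against MH), from -0.17 to 0.11 for Sox9 base 1508, -0.00085 to 0.19 for Sox4 base 1419 and -0.65 to 0.25 for Gpc3 (LN111 against Mat), from -0.57 to 0.37 for Gpc3 (LN111 against LN511), and from -0.54 to 0.32 for Gpc3, -0.22 to 0.26 for Prom1 and -0.87 to 0.47 for Spp1 (LN511 against Mat).

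Same-numbered arrays of different groups did not all deviate together. Between coatings the 9 such correlations were 0.07 to 0.72 (median 0.53) and 7 were over 0.1, with LN111 replicate 3 in both of the others, while the 9 with MH were -0.03 to 0.06 (median 0.01). The 3 of LN511 with Mat were 0.12 to 0.72. Pairs of replicate 3 arrays between coatings were all low, at 0.07, 0.08 and 0.12. Mat replicate 3 correlated at 0.51 with LN111 replicate 1 and at 0.53 with LN511 replicate 1. Over all groups, the 36 correlations of arrays with unlike numbers were -0.65 to 0.53 (median -0.01). Outside their group, 7 of 9 cultured arrays correlated best with their own number. Replicate numbers were not used as pairs, and a replicate block changed no call of a member probe for LN511 against Mat. It ended the call of Sox9 base 443 for cultured cells against MH (limma adjusted p 0.0558) and added Dlk1 for LN111 against LN511 (0.0269). With a replicate block the counts of called member probes were 12 for cultured cells, 12 for LN111, 13 for LN511 and 12 for Mat against MH, 0 for LN111 against Mat, 5 for LN511 against Mat and 10 for LN111 against LN511, and the F test called 10. Over all probes, LN511 against Mat called 1788, against 83 with the slide as a block, 100 within slide 2, 13300 unscaled, 5025 with normexp, 968 with the strict filter, 2935 with a replicate block and 709 to 2122 with an array left out. LN111 against LN511 called 3956, against 2374 unscaled, 2117 within slide 2, 5988 with a replicate block and 2200 to 5132 with an array left out. With the slide as a block, 9998 probes were called for LN111 and 10310 for LN511 against MH, where the fit without it called 15646 and 15862. The strict filter called 11298, 10368, 10309 and 10497 for cultured cells, LN111, LN511 and Mat against MH, and no filter called 28611, 24273, 16999 and 28983, against 17118, 15646, 15862 and 15721. Signal over background limited Dlk1, Sox9 base 443 and every member probe at background in MH.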

Other observations

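Markers of further cell types were read on the same arrays. Mesothelial genes, of which 5 of 6 listed were on the array, summed to a relative signal of 6.16 to 13.9 on LN111, 8.29 to 30.5 on LN511 and 6.88 to 20.0 on Mat, against 0.35 to 0.45 in MH. Wt1, Bnc1 and Gpm6a, 3 of these mesothelial genes, were not well above background on any MH array, and Wt1 was so on 1 LN511 array. Msln was the brightest of the list in culture, with mean log2 relative signals of 3.16 on LN111, 3.83 on LN511 and 3.26 on Mat. Lrrn4 ran the other way, with means of -3.01, -3.45 and -3.07 on those coatings and -1.55 in MH. Sinusoidal endothelial genes ran the other way, with sums of 0.39 to 3.33 on LN111, 0.08 to 0.79 on LN511 and 0.17 to 1.40 on Mat, against 10.8 to 12.2 in MH. Pecam1, Lyve1 and Plvap were not well above background on any cultured array. Lymphocyte and blood cell genes summed to at most 0.04 on the cultured arrays and to 0.15 to 0.21 in MH.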
